A study of Homo sapiens with 12 samples.

Results

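Transforming growth factor beta (TGF-beta), activins and bone morphogenetic proteins (BMPs) are secreted ligands that bind pairs of serine/threonine kinase receptors at the cell surface. The receptors phosphorylate SMAD proteins, SMAD2 and SMAD3 for TGF-beta and activins, SMAD1 and SMAD5 for BMPs, and these join SMAD4 and enter the nucleus to regulate target genes. Ligands are held in latent complexes in the matrix, trapped by secreted antagonists and countered by inhibitory SMADs, ubiquitin ligases and nuclear corepressors. In hepatocellular carcinoma (HCC), TGF-beta is known as a driver of epithelial to mesenchymal transition, and BMP signaling is read out by the ID genes.

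A list of 44 genes of the TGF-beta and BMP pathway, given by symbol, was followed in SNU449 cells. Of these, 42 were found among the 15601 genes of the table over all libraries, and BMP7 and ENG were not listed there. SNU449 is a human HCC line with a mesenchymal-like phenotype. SNU449-Axl- cells were derived from it by CRISPR/Cas9 knockout of AXL, a receptor tyrosine kinase activated by Gas6. Both were analysed as control cells and as cells made resistant to the multikinase inhibitor Regorafenib (Rego) by stepwise exposure up to 2 times the IC50, in which the drug was given again after each passage. All 4 groups grew in RPMI with fetal bovine serum. Each group is represented by 3 technical replicate libraries of 1 cell population, sequenced from the 3' ends of mRNA (QuantSeq), so that p-values measure the spread between libraries, and the effect of Rego or Axl cannot be told apart from other differences between the populations.

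The value of a gene in a library is 2 to the power of its variance-stabilized level, cleared by the authors of a preparation effect. It is close to a normalized read count for well expressed genes and compressed for weak ones. Genes with a mean normalized count of 2 had a median value of 26, those with 10 had 37.2, those with 100 had 120.5 and those with 1000 had 976.5, and therefore fold changes of weak genes are understated. Log2 fold changes are differences of mean log2(value + 1) with their standard error (SE) from limma, and a gene was called at a Benjamini-Hochberg adjusted p under 0.05 over all 15601 genes. Depth per library is unknown. Values of AXL were 727, 941 and 715 in SNU449 control cells and 1237, 815 and 1271 in Rego-resistant SNU449 cells, against 33 to 53 in the 6 SNU449-Axl- libraries. Of 5 mesenchymal markers all were listed, with a mean normalized count of 18900 for VIM, and the 4 endothelial markers were not listed. Of 4 epithelial markers, CDH1 and EPCAM were not listed, whereas KRT18 and KRT8 had mean normalized counts of 1090 and 267. KRT8 was higher without Axl, by 0.79 on the log2 scale in control cells (limma, adjusted p = 0.0332) and by 1.58 in resistant cells (limma, adjusted p = 0.000248). KRT18 was not called, with log2 differences of 0.28 in control cells (limma, adjusted p = 0.593) and 0.25 in resistant cells (limma, adjusted p = 0.682). Of 10 hepatocyte markers only APOA1, AFP and FGB were listed, at mean normalized counts of 1.14, 4.26 and 104. FGB rose in Rego-resistant SNU449-Axl- cells to values of 189, 547 and 294, from 36, 63 and 72 in their control cells. The part of these markers in the results below was not tested.

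Across the 42 members, 19 were called in at least 1 of 5 comparisons and 23 in none, while 16.6% of all genes were called in at least 1. Rego resistance in SNU449 cells gave 11 called members, 8 higher and 3 lower, on a background of 7.81% of all genes, 4.31% higher and 3.5% lower. Rego resistance in SNU449-Axl- cells gave 7, with 3 higher and 4 lower, where 4.35% of all genes were called, 2.54% as higher and 1.81% as lower. Loss of Axl in control cells gave 8 members that were all higher, and 7.45% of all genes, of which 4.03% were called as higher and 3.43% as lower. Among resistant cells, loss of Axl gave 3 higher and 3 lower members against 4.37% of all genes, 2.44% higher and 1.93% lower. The difference of the Rego effect between backgrounds, tested as an interaction, was called for 6 members, 5 above and 1 below 0, and for 5.87% of all genes, 2.95% above and 2.92% below. Among genes with a mean normalized count of at least 10 the backgrounds in the same order were 9.21%, 5.22%, 8.81%, 5.2% and 7.14%. Libraries of the compared groups did not overlap for 18, 15, 13 and 16 of the 42 members in the 4 comparisons between groups, which is read against 27.9%, 29.1%, 27.9% and 28% of all genes. The median log2 fold change of the members was 0.14 for Rego in SNU449 and -0.09 for Rego in SNU449-Axl- cells, with -0.00 and 0.01 over all genes. The residual spread between libraries was above that of the median gene for 34 of 42 members.

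**Figure D1:**
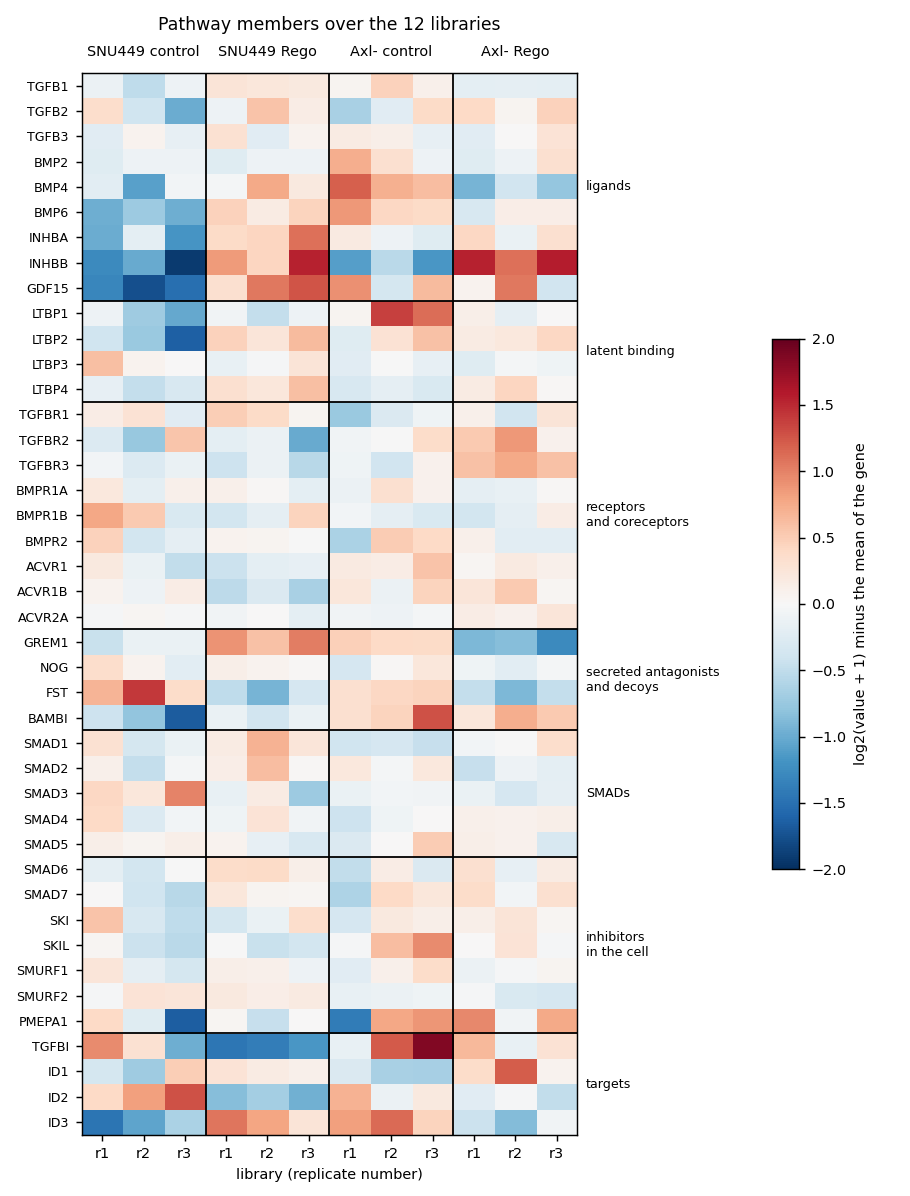
Heat map of the 42 members (rows, grouped by role) over the 12 libraries (columns, by group and replicate number), coloured by log2(value + 1) minus the mean of the gene, with colours ending at 2 on either side. GDF15, INHBB, FST, GREM1 and ID3 change between groups, while rows such as ACVR2A, with values of 45 to 61, are pale throughout and PMEPA1 and TGFBI vary within groups.

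Among ligands, BMP4, BMP6 and GDF15 differed in their Rego effect between SNU449 and SNU449-Axl- cells. BMP4 (ENSG00000125378.16, chr14:53949736-53958761, minus strand, GRCh38) signals through SMAD1 and SMAD5. Its values were 170, 93 and 191 in SNU449 control cells, 192, 335 and 227 in Rego-resistant SNU449 cells, 453, 325 and 304 in SNU449-Axl- control cells and 104, 151 and 116 in Rego-resistant SNU449-Axl- cells. Thus all resistant libraries lay above the control libraries in SNU449 cells, by only 1 unit at the nearest pair, and all lay below them in SNU449-Axl- cells. In SNU449-Axl- cells BMP4 fell by 1.53 on the log2 scale (SE 0.275, limma, adjusted p = 0.00317), whereas in SNU449 cells the difference of 0.75 missed the threshold (SE 0.275, limma, adjusted p = 0.11). The interaction, given throughout as the Rego effect in SNU449 cells minus that in SNU449-Axl- cells, was 2.29 (SE 0.389, limma, adjusted p = 0.00163). BMP4 was higher without Axl in control cells (log2 fold change 1.29, limma, adjusted p = 0.00682) and lower without Axl in resistant cells (-0.995, limma, adjusted p = 0.0465). The former call was lost without SNU449 control replicate 2 (0.87, limma, adjusted p = 0.0637), and the latter without any single library of Rego-resistant SNU449-Axl- cells, replicate 2 or 3 of Rego-resistant SNU449 cells or replicate 2 or 3 of SNU449-Axl- control cells (limma, adjusted p up to 0.26) when libraries were centred on the spike-in RNAs (-0.69, limma, adjusted p = 0.097) and among genes with a mean count of at least 10 (limma, adjusted p = 0.0529).

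BMP6 (ENSG00000153162.9, chr6:7726099-7881728, plus strand) is a BMP that in liver is known for the control of iron through hepcidin. It was close to the lower end of the scale in SNU449 control cells, with values of 20, 24 and 20. The other groups had 56, 45 and 55 (Rego-resistant SNU449), 74, 54 and 53 (SNU449-Axl- control) and 32, 44 and 44 (Rego-resistant SNU449-Axl-). No library of the other groups reached down to the SNU449 control cells, and within SNU449-Axl- cells all resistant libraries were below the controls. BMP6 rose with Rego resistance in SNU449 cells (log2 fold change 1.25, SE 0.204, limma, adjusted p = 0.000723) and with loss of Axl in control cells (1.45, SE 0.204, limma, adjusted p = 0.000238). With Rego resistance in SNU449-Axl- cells the log2 difference was -0.58 (limma, adjusted p = 0.121), and the interaction was 1.82 (SE 0.289, limma, adjusted p = 0.000931). Mean normalized counts of each group were solved by least squares from the authors' means over pairs of groups, where they carry no error between libraries, and came out at or below 0 in SNU449 control cells and at 22.6, 35.2 and 14.1 in the other groups in the same order, with an error of up to 7.31% of a pair's mean.

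GDF15 (ENSG00000130513.7, chr19:18374731-18389176, plus strand), a distant member of the ligand family that is induced by stress and signals through GFRAL, had values of 316, 230 and 272 in SNU449 control cells. Values were 969, 1615 and 1867 in Rego-resistant SNU449 cells, 1468, 611 and 1204 in SNU449-Axl- control cells and 816, 1613 and 600 in Rego-resistant SNU449-Axl- cells. SNU449 control cells were thus low and the other 3 groups overlapped. The rise with Rego in SNU449 cells was 2.40 on the log2 scale (SE 0.347, limma, adjusted p = 0.000242) and that with loss of Axl in control cells 1.92 (SE 0.347, limma, adjusted p = 0.00205). In SNU449-Axl- cells the log2 difference with Rego was -0.15 (SE 0.347, limma, adjusted p = 0.868), the sign of which turned without single libraries, and the solved mean counts of 1100 in control and 1530 in resistant cells lay in the other direction. The interaction of 2.55 was called (SE 0.49, limma, adjusted p = 0.00424).

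The activin subunits followed another pattern. INHBB (ENSG00000163083.6, chr2:120346136-120351803, plus strand), which encodes the beta B subunit of activin B and inhibin B, had values of 38, 46 and 24 in SNU449 control and 43, 64 and 41 in SNU449-Axl- control cells. In resistant cells it had 170, 126 and 274 with Axl and 273, 202 and 279 without. Every resistant library was above every control library in either background. The log2 fold change with Rego was 2.34 in SNU449 cells (SE 0.288, limma, adjusted p = 4.35e-05) and 2.34 in SNU449-Axl- cells (SE 0.288, limma, adjusted p = 0.000119), and both calls held without any single library. The interaction was 0.00 with an SE of 0.407 (limma, adjusted p = 0.999). A difference well above this SE could also have gone uncalled, as the LTBP2 interaction of 1.31 did (SE 0.388, limma, adjusted p = 0.0536). Solved mean counts rose from 7.11 to 154 and from 29.1 to 250, but the solution for INHBB left an error of up to 8.79% of a pair's mean, so that the lowest of these counts is uncertain.

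INHBA encodes the beta A subunit of activin A. Its values were 197, 342 and 172 in SNU449 control cells and 511, 530 and 843 in Rego-resistant SNU449 cells, against 444, 364 and 330 and 524, 355 and 489 in SNU449-Axl- control and resistant cells. The groups were separate in SNU449 cells and overlapped in SNU449-Axl- cells. INHBA rose with Rego in SNU449 cells (log2 fold change 1.43, SE 0.264, limma, adjusted p = 0.00197). The log2 difference in SNU449-Axl- cells was 0.26 (limma, adjusted p = 0.663), and the interaction of 1.17 missed the threshold (SE 0.373, limma, adjusted p = 0.0736), although it was called when the replicate number was not fitted (limma, adjusted p = 0.0406).

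The TGF-beta ligands themselves were called in no comparison. TGFB1 had 78, 59 and 79 in SNU449 control, 102, 99 and 97 in Rego-resistant SNU449, 88, 117 and 91 in SNU449-Axl- control and 74, 75 and 74 in Rego-resistant SNU449-Axl- cells. As for BMP4, the groups did not overlap in any of the 4 comparisons, but the differences were small, with log2 values of 0.47 for Rego in SNU449 cells (limma, adjusted p = 0.161) and -0.39 in SNU449-Axl- cells (limma, adjusted p = 0.29). The interaction for TGFB1 was 0.86 (SE 0.274, limma, adjusted p = 0.0736) and was called without the replicate term (limma, adjusted p = 0.0182). TGFB2 was the most abundant TGF-beta ligand by mean normalized count, a comparison that 3' end counts allow without a length correction, with 836 against 61.4 for TGFB1, and ranged from 396 to 1175 over overlapping groups. TGFB3 and BMP2 were near the lower end of the scale, with values of 21 to 31 and 20 to 40 at mean counts of 1.4 and 1.7.

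**Figure D2:**
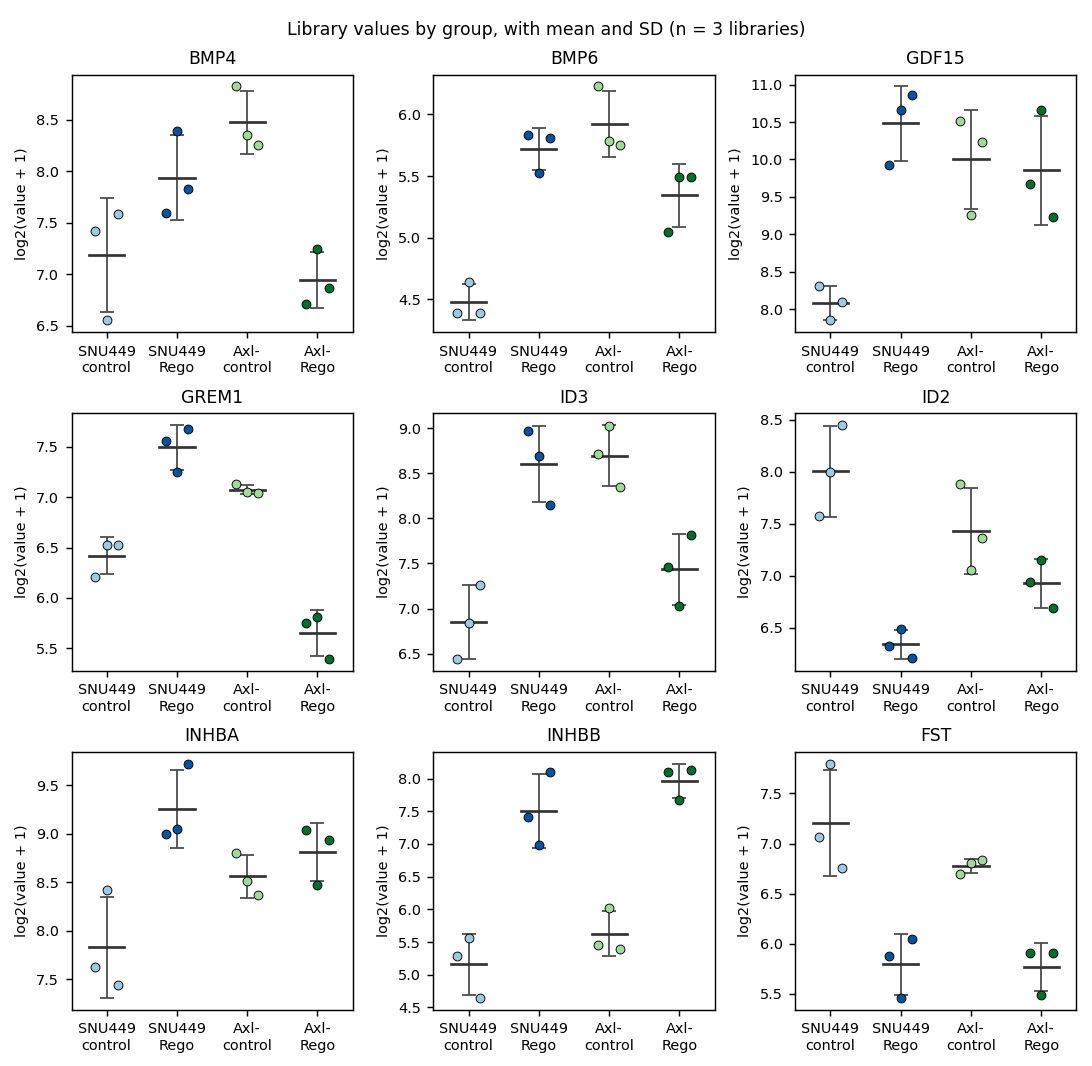
Library values of 9 members on the log2(value + 1) scale by group, where points are libraries, horizontal lines are means and bars are SD (n = 3). Axl- stands for SNU449-Axl- and Rego for Rego-resistant. BMP4, GREM1 and ID3 are higher in resistant than in control SNU449 cells and lower in resistant than in control SNU449-Axl- cells, while INHBB is higher and FST lower in resistant cells of either background. The difference of BMP4 in SNU449 cells was not called.

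Latent TGF-beta binding proteins tether the ligand complexes in the matrix. LTBP2, the member of this family that does not bind latent TGF-beta, had values of 126, 99 and 53 in SNU449 control and 228, 196 and 258 in Rego-resistant SNU449 cells, and of 141, 203 and 251 and 187, 193 and 221 in SNU449-Axl- control and resistant cells. SNU449 control cells were below all other libraries. LTBP2 rose with Rego in SNU449 cells (log2 fold change 1.36, SE 0.275, limma, adjusted p = 0.00407) and with loss of Axl in control cells (1.14, SE 0.275, limma, adjusted p = 0.0151). SNU449 control replicate 3 was its lowest library, and without it these differences were 0.89 (limma, adjusted p = 0.0254) and 0.66 (limma, adjusted p = 0.0928). The latter call was also lost without replicate 2 (1.09, limma, adjusted p = 0.0844) or 3 of SNU449-Axl- control cells (0.89, limma, adjusted p = 0.109) and in the table of the pair (0.94, limma, adjusted p = 0.0968). The interaction of LTBP2 was 1.31 (limma, adjusted p = 0.0536).

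LTBP1 had 60, 39 and 31 in SNU449 control, 61, 46 and 60 in Rego-resistant SNU449, 67, 167 and 141 in SNU449-Axl- control and 70, 57 and 65 in Rego-resistant SNU449-Axl- cells. Replicates 2 and 3 of the SNU449-Axl- control cells stood above all other libraries. It was called as higher without Axl in control cells (log2 fold change 1.46, SE 0.295, limma, adjusted p = 0.00467), a call that was lost without SNU449-Axl- control replicate 2 (1.12, limma, adjusted p = 0.0586) and in the table of this pair of groups (1.15, limma, adjusted p = 0.0552). LTBP4 had 101, 81 and 91 in SNU449 control and 142, 133 and 172 in Rego-resistant SNU449 cells, with a log2 fold change of 0.70 (SE 0.194, limma, adjusted p = 0.0313). In SNU449-Axl- cells it had 91, 100 and 92 against 127, 153 and 115, again without overlap, at a log2 difference of 0.47 (limma, adjusted p = 0.192). The LTBP4 call in SNU449 cells was lost without SNU449 control replicate 2 or 3 or Rego-resistant SNU449 replicate 1 or 3 (limma, adjusted p up to 0.17) in the table of the pair (0.55, limma, adjusted p = 0.0947) and with spike-in centring (0.64, limma, adjusted p = 0.0775). LTBP3 ranged from 102 to 184 and was not called.

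Of 9 receptors and coreceptors, none was called for Rego in SNU449 cells or for loss of Axl in control cells, where 7.81% and 7.45% of all genes were called. At these shares the absence of calls among 9 genes is not read as a result about receptors. TGFBR3 (ENSG00000069702.11, chr1:91680343-91906335, minus strand), the coreceptor betaglycan that presents TGF-beta2 and binds inhibin, stood apart in Rego-resistant SNU449-Axl- cells with values of 157, 178 and 158. The other groups had 100, 86 and 95 (SNU449 control), 78, 96 and 71 (Rego-resistant SNU449) and 98, 80 and 111 (SNU449-Axl- control), which overlapped each other. It was higher than in Rego-resistant SNU449 cells by 1.01 on the log2 scale (SE 0.197, limma, adjusted p = 0.00601) and than in SNU449-Axl- control cells by 0.77 (SE 0.197, limma, adjusted p = 0.032). The interaction was -0.98 (SE 0.279, limma, adjusted p = 0.0443). Without Rego-resistant SNU449-Axl- replicate 2 the first difference was 0.93 (limma, adjusted p = 0.0601). The second was lost without SNU449-Axl- control replicate 1 or 2 or any resistant SNU449-Axl- library (limma, adjusted p up to 0.218), and the interaction without any of 10 libraries, all but Rego-resistant SNU449 replicate 2 and SNU449-Axl- control replicate 3 (limma, adjusted p up to 0.165).

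ACVR1B, the type I receptor of activins (ALK4), was higher in resistant cells without Axl, with 117, 143 and 102 against 69, 81 and 63 in Rego-resistant SNU449 cells (log2 fold change 0.75, SE 0.209, limma, adjusted p = 0.0482). Control cells had 104, 92 and 110 with Axl and 116, 91 and 136 without, so that Rego-resistant SNU449 cells were the low group. This call was lost without any of 9 libraries, all but SNU449 control replicate 3 and replicates 2 and 3 of SNU449-Axl- control cells (limma, adjusted p up to 0.283), and with upper-quartile scaling (0.74, limma, adjusted p = 0.0533). TGFBR2, the type II receptor of TGF-beta, had 239, 251 and 135 in Rego-resistant SNU449 and 392, 501 and 290 in Rego-resistant SNU449-Axl- cells without overlap. Its log2 difference of 0.93 missed the threshold (limma, adjusted p = 0.0952) and was called in the table of this pair (0.73, limma, adjusted p = 0.00375). The remaining receptors were called nowhere. They ranged from 63 to 149 for TGFBR1, from 102 to 146 for BMPR1A, from 199 to 441 for BMPR2, from 102 to 215 for ACVR1 and from 45 to 61 for ACVR2A, and BMPR1B was near the lower end of the scale with 20 to 45.

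Of 4 secreted antagonists and decoys, GREM1, FST and BAMBI were called, while 16.6% of all genes were called in at least 1 comparison. GREM1 (ENSG00000166923.12, chr15:32718004-32745106, plus strand) encodes Gremlin 1, which binds BMP2 and BMP4 and keeps them from their receptors. Its values were 73, 91 and 91 in SNU449 control, 187, 151 and 204 in Rego-resistant SNU449, 139, 132 and 131 in SNU449-Axl- control and 53, 55 and 41 in Rego-resistant SNU449-Axl- cells. No pair of groups overlapped, and the order was Rego-resistant SNU449, SNU449-Axl- control, SNU449 control and Rego-resistant SNU449-Axl- cells. GREM1 rose with Rego in SNU449 cells (log2 fold change 1.08, SE 0.199, limma, adjusted p = 0.00202) and fell with Rego in SNU449-Axl- cells (-1.43, SE 0.199, limma, adjusted p = 0.000347). Among resistant cells, GREM1 was lower without Axl (-1.84, SE 0.199, limma, adjusted p = 2.3e-05), while the difference of 0.66 in control cells was just above the threshold (limma, adjusted p = 0.0515). The latter was called under 4 alternatives, among them that without the replicate term (limma, adjusted p = 0.0134). The interaction was 2.5 (SE 0.281, limma, adjusted p = 3.76e-05), and the 4 calls of GREM1 held without any single library and under all alternatives.

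FST encodes follistatin, which neutralizes activins. Its values were 133, 221 and 107 in SNU449 control and 58, 43 and 65 in Rego-resistant SNU449 cells, and 103, 111 and 113 and 59, 44 and 59 in SNU449-Axl- control and resistant cells. The resistant libraries of both backgrounds were below all control libraries. FST fell with Rego by 1.41 on the log2 scale in SNU449 cells (SE 0.249, limma, adjusted p = 0.00141) and by 1.01 in SNU449-Axl- cells (SE 0.249, limma, adjusted p = 0.0262), with an interaction of -0.40 (SE 0.352, limma, adjusted p = 0.597). The call in SNU449-Axl- cells was lost without any of the 6 SNU449-Axl- libraries (limma, adjusted p up to 0.201) and with spike-in centring (-0.89, limma, adjusted p = 0.0609). INHBB, whose product FST binds as part of activin B, moved the other way in the same comparisons, and the solved mean counts of FST were 134 and 18 in SNU449 and 92.3 and 33.9 in SNU449-Axl- cells.

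BAMBI, a pseudoreceptor that lacks the kinase domain and is itself induced by TGF-beta and BMP signals, had 193, 148 and 80 in SNU449 control, 234, 197 and 233 in Rego-resistant SNU449, 320, 350 and 625 in SNU449-Axl- control and 299, 424 and 371 in Rego-resistant SNU449-Axl- cells. All SNU449-Axl- libraries were above all SNU449 libraries. BAMBI was higher without Axl in control cells by 1.64 (SE 0.291, limma, adjusted p = 0.00184), which held without any single library. In resistant cells the log2 difference was 0.71 (SE 0.291, limma, adjusted p = 0.196), and it was called in the table of this pair (0.55, limma, adjusted p = 0.03). NOG, encoding the BMP antagonist Noggin, was near the lower end of the scale with 20 to 33.

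**Figure D3:**
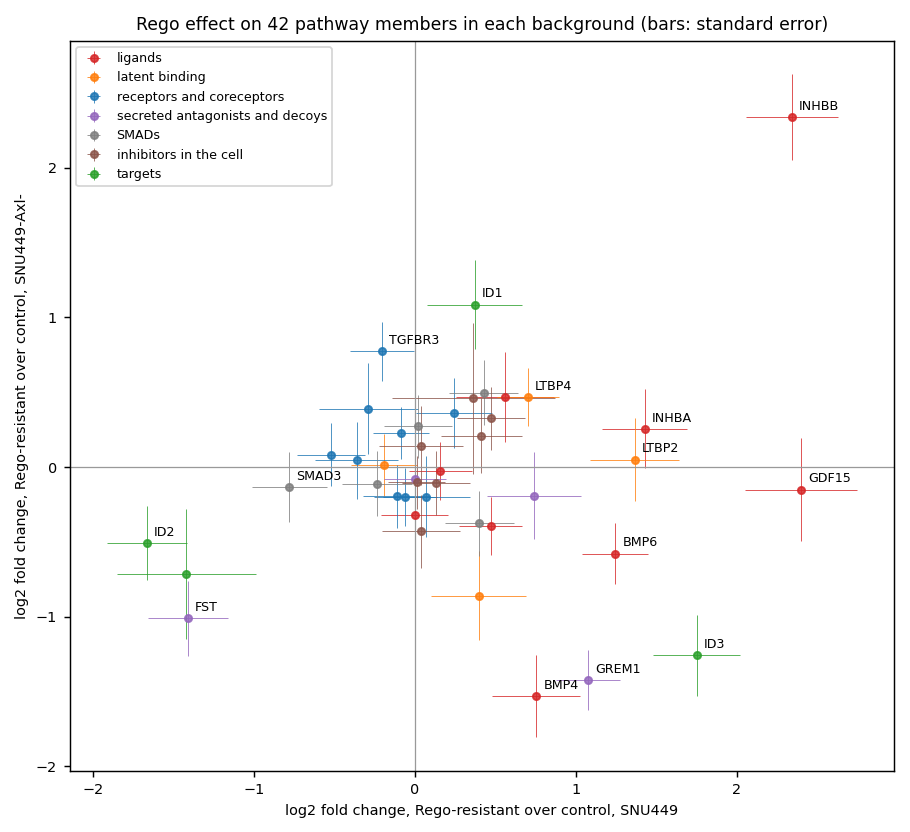
Log2 fold change of Rego-resistant over control cells in SNU449 (x axis) and SNU449-Axl- cells (y axis) for the 42 members, coloured by role, with bars for the standard error and names for members called in either. INHBB lies at 2.34 on both axes, GREM1 and ID3 lie at the lower right with opposite signs, and ID2 and FST lie at the lower left.

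Of 5 SMADs, only SMAD3 was called, and in a single comparison, while 16.6% of all genes were called in at least 1. SMAD3, which transmits TGF-beta and activin signals, had 1040, 920 and 1554 in SNU449 control and 706, 879 and 473 in Rego-resistant SNU449 cells, and 717, 753 and 744 and 714, 618 and 689 in SNU449-Axl- control and resistant cells. SNU449 control cells were above all others. SMAD3 was lower with Rego in SNU449 cells (log2 fold change -0.78, SE 0.233, limma, adjusted p = 0.0475), but the call was lost without any of 9 libraries, all but SNU449 control replicate 2, Rego-resistant SNU449 replicate 2 and SNU449-Axl- control replicate 1 (limma, adjusted p up to 0.306), in the table of the pair (limma, adjusted p = 0.18) and without the variance trend (limma, adjusted p = 0.0501). It was -0.48 without SNU449 control replicate 3 and -0.45 without Rego-resistant SNU449 replicate 3. SMAD1, SMAD2, SMAD4 and SMAD5 were called in no comparison and ranged from 99 to 221, from 160 to 343, from 104 to 184 and from 333 to 589. Log2 differences of the SMADs that were not called lay between -0.23 and 0.43 for Rego in SNU449 cells, at SEs of 0.211 to 0.217.

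Of 7 inhibitors that act in the cell, only SKIL was called, while 16.6% of all genes were called in at least 1 comparison. SKIL encodes SnoN, a corepressor of SMADs that is degraded and then induced upon TGF-beta signaling. It had 217, 157 and 145 in SNU449 control and 208, 325 and 411 in SNU449-Axl- control cells, with overlap at replicate 1 (log2 fold change 0.83, SE 0.243, limma, adjusted p = 0.0458). Resistant cells had 210, 155 and 164 with Axl and 213, 256 and 208 without. The call was lost without any of 8 libraries, all but SNU449 control replicate 1, Rego-resistant SNU449 replicates 1 and 3 and SNU449-Axl- control replicate 1 (limma, adjusted p up to 0.243), and in the table of the pair (0.76, limma, adjusted p = 0.135), with 0.54 without SNU449-Axl- control replicate 3. The inhibitory SMADs ranged from 123 to 228 for SMAD6 and from 54 to 110 for SMAD7. The corepressor SKI ranged from 238 to 504, and the ubiquitin ligases SMURF1 and SMURF2 ranged from 58 to 96 and from 433 to 663.

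PMEPA1 and TGFBI are induced by TGF-beta, PMEPA1 as an inhibitor of the pathway and TGFBI as a secreted matrix protein, and both varied widely between libraries of the same group. PMEPA1 had 2711, 1740 and 657 in SNU449 control, 2122, 1499 and 2079 in Rego-resistant SNU449, 785, 3515 and 3806 in SNU449-Axl- control and 3997, 1970 and 3477 in Rego-resistant SNU449-Axl- cells. All groups overlapped and no comparison was called. Its residual SD of 1.02 on the log2 scale was at the 99.9 percentile of all genes. TGFBI had 3459, 2215 and 906, then 656, 690 and 802, then 1619, 4185 and 6480, and 2808, 1612 and 2189 in the same order of groups, with a residual SD of 0.856 at the 99.8 percentile. Rego-resistant SNU449 cells were thus below all other libraries. TGFBI was higher in resistant cells without Axl than in those with Axl (log2 fold change 1.59, SE 0.434, limma, adjusted p = 0.0438), which was lost without any of 8 libraries, all but SNU449 control replicates 1 and 3 and SNU449-Axl- control replicates 1 and 3 (limma, adjusted p up to 0.233), and among genes with a mean count of at least 10 (limma, adjusted p = 0.0562). The difference of -1.42 with Rego in SNU449 cells was just above the threshold (limma, adjusted p = 0.0527) and was called without the replicate term (limma, adjusted p = 0.0445) in the table of the pair (-1.44, limma, adjusted p = 0.0482) and with spike-in or upper-quartile scaling. It was -0.85 without SNU449 control replicate 1 (limma, adjusted p = 0.296) and -2.13 without replicate 3 (limma, adjusted p = 0.00157). Solved mean counts of TGFBI were 2060, 431, 4880 and 2510.

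SNU449 control replicate 3 and SNU449-Axl- control replicate 1 were the low libraries of their groups for PMEPA1 and TGFBI. Of the 42 members, 18 were lowest of the group in the former, 42.9% against 33.0% of all genes, and 24 in the latter, 57.1% against 30.8%. Rego-resistant SNU449 replicate 3 was also lowest for 18 members, 42.9% against 35.2% of all genes. A further 18 genes that are no members were listed from general knowledge as targets of TGF-beta and BMP. The place of LTBR on this list was not checked. Of the 18, 11 were lowest and 5 highest in SNU449 control replicate 3 within the group, CCN2, COL1A1 and TAGLN among the former and FN1 and COL1A2 among the latter. SNU449-Axl- control replicate 1 also had 11 lowest and 5 highest, and Rego-resistant SNU449-Axl- replicate 2 had 9 lowest and 7 highest. CCN2, COL1A1 and TAGLN were chosen for the plot after their values were seen. Since the removal of the preparation effect ties the values of libraries with the same replicate number to each other, the part of a single library in this spread cannot be told apart from that removal.

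**Figure D4:**
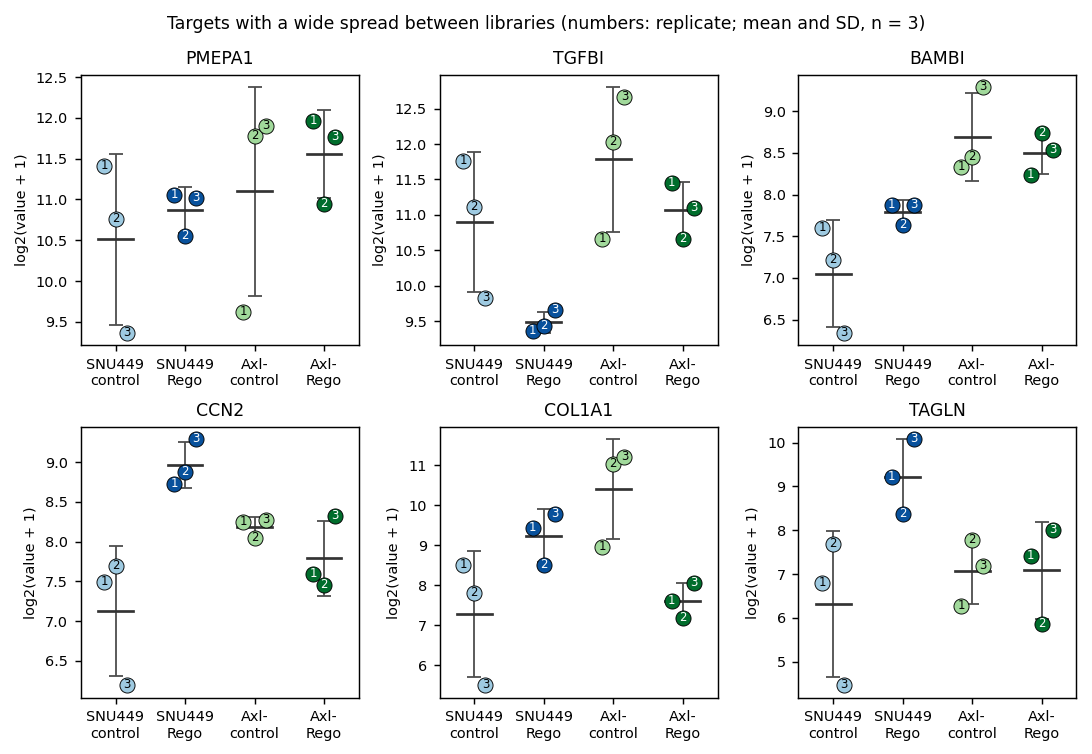
Library values of 3 members and 3 further TGF-beta targets on the log2(value + 1) scale by group, with numbers for the replicate, horizontal lines for the mean and bars for SD (n = 3). Axl- stands for SNU449-Axl- and Rego for Rego-resistant. PMEPA1 ranges from 657 to 2711 within SNU449 control cells, where replicate 3 is the lowest library in each panel.

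ID1, ID2 and ID3 encode inhibitors of basic helix-loop-helix transcription factors and are direct targets of BMP signaling through SMAD1 and SMAD5. They moved differently. ID3 (ENSG00000117318.9, chr1:23557926-23559501, minus strand) had 86, 114 and 153 in SNU449 control, 501, 411 and 283 in Rego-resistant SNU449, 420, 519 and 324 in SNU449-Axl- control and 175, 130 and 225 in Rego-resistant SNU449-Axl- cells. Resistant libraries were all above the controls in SNU449 cells and all below them in SNU449-Axl- cells. ID3 rose with Rego in SNU449 cells (log2 fold change 1.75, SE 0.271, limma, adjusted p = 0.000445) and fell in SNU449-Axl- cells (-1.26, SE 0.271, limma, adjusted p = 0.0118). Loss of Axl gave 1.84 in control cells (limma, adjusted p = 0.000341) and -1.17 in resistant cells (limma, adjusted p = 0.0187). The interaction of 3.01 was the largest of all members (SE 0.383, limma, adjusted p = 0.000125). The fall in SNU449-Axl- cells was lost without their control replicate 2 (-1.04, limma, adjusted p = 0.117) or their resistant replicate 1 (-1.27, limma, adjusted p = 0.057) or 2 (-0.99, limma, adjusted p = 0.136). The difference between resistant cells was lost without replicate 1 or 2 of either resistant group (limma, adjusted p up to 0.171) and with spike-in centring (-0.86, limma, adjusted p = 0.0525).

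ID2 (ENSG00000115738.10, chr2:8678845-8684461, plus strand) had 189, 254 and 348 in SNU449 control and 79, 89 and 73 in Rego-resistant SNU449 cells, and 234, 132 and 164 and 122, 141 and 102 in SNU449-Axl- control and resistant cells. Rego-resistant SNU449 cells were below all other libraries. ID2 fell with Rego by 1.66 in SNU449 cells (SE 0.247, limma, adjusted p = 0.000315), against a log2 difference of -0.51 in SNU449-Axl- cells (limma, adjusted p = 0.282). The interaction of -1.16 missed the threshold (SE 0.35, limma, adjusted p = 0.0599) and was called without the replicate term (limma, adjusted p = 0.0289). ID1 (ENSG00000125968.9, chr20:31605283-31606515, plus strand) had 111, 86 and 201, then 172, 160 and 152, then 116, 90 and 89, and 183, 329 and 150 in the same order of groups. The groups were separate in SNU449-Axl- cells only, where ID1 was higher with Rego (log2 fold change 1.09, SE 0.295, limma, adjusted p = 0.043), a call lost without any of 6 libraries, which were replicates 1 and 2 of Rego-resistant SNU449, 2 and 3 of SNU449-Axl- control and 1 and 2 of Rego-resistant SNU449-Axl- cells (limma, adjusted p up to 0.333). Without Rego-resistant SNU449-Axl- replicate 2 it was 0.65. The interaction of ID1 was -0.71 (limma, adjusted p = 0.376).

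The sequences before the start sites of these 3 paralogs are shown since the genes share BMP signals as inputs and differed in direction here. Each is the 250 bases before the RefSeq start on GRCh38.p14, written on the strand of the gene from 5' to 3', at chr20:31605039-31605288 for ID1, chr2:8681806-8682055 for ID2 and chr1:23559502-23559751 for ID3. The ID2 window lies inside the interval given above for that gene, whereas the windows of ID1 and ID3 lie at the edge of theirs. Capitals mark the SMAD-binding letters CAGAC on either strand or GGCGCC.
ID1: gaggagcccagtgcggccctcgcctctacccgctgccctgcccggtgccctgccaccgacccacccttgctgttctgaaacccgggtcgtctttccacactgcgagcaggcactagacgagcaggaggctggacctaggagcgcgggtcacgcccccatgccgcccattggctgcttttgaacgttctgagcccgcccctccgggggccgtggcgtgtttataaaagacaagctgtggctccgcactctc
ID2: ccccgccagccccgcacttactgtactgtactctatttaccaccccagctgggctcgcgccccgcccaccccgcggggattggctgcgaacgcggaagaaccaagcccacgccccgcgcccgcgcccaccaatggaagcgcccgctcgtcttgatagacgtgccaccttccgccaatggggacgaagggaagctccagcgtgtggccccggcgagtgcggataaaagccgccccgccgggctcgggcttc
ID3: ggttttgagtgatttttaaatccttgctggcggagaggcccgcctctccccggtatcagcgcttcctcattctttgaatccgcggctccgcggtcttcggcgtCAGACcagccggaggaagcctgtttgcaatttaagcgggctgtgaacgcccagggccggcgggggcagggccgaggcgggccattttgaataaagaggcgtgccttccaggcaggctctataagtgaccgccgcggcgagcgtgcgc
Only the ID3 window held a match, a single CAGAC. Over all 35116 promoter windows of this length, 38.0% held CAGAC on either strand and 16.4% held GGCGCC, a palindrome that can share its last base with CAGAC. Of the members, 39 were matched to 74 windows by symbol. CAGAC was found in 30 and GGCGCC in 19 of these 74 windows. A match describes letters in this window only.

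Further genes of the pathway that are no members were counted from a list of general knowledge, of which 63 were tested. The list was chosen with earlier results of these data known, so that its counts are no independent support. In Rego-resistant SNU449 cells 12 were higher and 3 lower, against 4.31% and 3.5% of all genes, and in Rego-resistant SNU449-Axl- cells 2 were higher and 6 lower, against 2.54% and 1.81%. Loss of Axl gave 8 higher and 3 lower in control cells, against 4.03% and 3.43%, and 3 higher and 6 lower in resistant cells, against 2.44% and 1.93%. The interaction was above 0 for 10 and below 0 for 2, against 2.95% and 2.92%. The antagonist CHRDL1, which binds BMP4, had 243, 252 and 294 in SNU449 control cells against 61 to 104 in the other 9 libraries, and fell with Rego in SNU449 cells by 1.99 on the log2 scale (SE 0.184, limma, adjusted p = 1.83e-06). Largest among the 12 called higher there were TAGLN (2.90, limma, adjusted p = 0.00844), GDF7 (2.01, limma, adjusted p = 2.06e-06) and CCN2 (1.84, limma, adjusted p = 0.00113). TAGLN had 111, 205 and 21 in SNU449 control and 590, 330 and 1081 in Rego-resistant SNU449 cells, at a residual SD of 1.33. FN1, encoding fibronectin, a matrix target of TGF-beta, was low in the groups in which GREM1 and ID3 were high. Its values were 2491, 1437 and 2923 in SNU449 control, 336, 453 and 650 in Rego-resistant SNU449, 559, 377 and 463 in SNU449-Axl- control and 2543, 4850 and 1351 in Rego-resistant SNU449-Axl- cells, with an interaction of -4.71 (SE 0.516, limma, adjusted p = 3.44e-05). Of the 18 further genes listed as targets the interaction was called for 4, against 5.87% of all genes. It was below 0 for FN1 and above 0 for the other 3, COL1A1 (4.76, limma, adjusted p = 0.00268), CCN2 (2.24, limma, adjusted p = 0.00562) and SNAI1 (1.08, limma, adjusted p = 0.0406). COL1A1 varied widely, with 363, 223 and 44 in SNU449 control and 498, 2102 and 2380 in SNU449-Axl- control cells. Whether the calls of these further genes hold without single libraries was not tested.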

How the data were processed

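RNA of 4 groups of 3 technical replicate libraries (12 in all) was sequenced by QuantSeq. According to the submitters' processing notes and the study's methods, reads were trimmed with cutadapt 4.0, aligned with STAR 2.5.3a to GRCh38 with GENCODE annotation, counted per gene and compared with DESeq2, in a design that held the preparation date. The deposited library values were treated as a score, which the authors made as 2 raised to the variance-stabilized, effect-removed level, rounded to whole numbers of at least 12. The signal of a gene is the mean normalized count deposited by the authors. Columns of the authors' comparisons (fold changes and p-values) were not used. The mean normalized counts of the tables summed to between 4.16e+06 and 4.91e+06.

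The table over all 12 libraries was fitted with limma 3.58.1 in R 4.3.3 on log2(value + 1), with 4 group means, the replicate number as a block and a variance trend, over 15601 genes without the 32 spike-in RNAs. No gene was lost to a minimum mean value of 5. The block was used since the effect removed by the authors runs along the replicate number. Deviations averaged over the groups had a median size of at most 0.00127 per number, against 0.122 per library. Between same-numbered libraries the deviations correlated at -0.485 to -0.0906. Since the removal ties these libraries to each other, the correlations cannot show whether they were paired before it. The fit was tested on simulated data. The text gives library values and tests for members called in at least 1 comparison, and the range for others. The members and gene lists were chosen with earlier results of these data known. Alternatives were no block, the tables of pairs, spike-in or upper-quartile centring, no pseudocount, a count minimum of 10, no trend and each library left out. Coordinates are from GENCODE on GRCh38, and promoters from RefSeq.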

Additional observations from a re-analysis of the deposited data

Results flagged for a closer look

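For 6 members the effect of Rego resistance differed between SNU449 and SNU449-Axl- cells by the interaction term in limma, given as the log2 effect in SNU449 minus that in SNU449-Axl- cells. The differences were 3.01 for ID3, 2.55 for GDF15, 2.5 for GREM1, 2.29 for BMP4 and 1.82 for BMP6, each of which was called without any single library, and -0.98 for TGFBR3, which was not called without any of 10 libraries. In ID3, GREM1 and BMP4 all 3 resistant libraries lay above the controls in SNU449 cells and all 3 lay below them in SNU449-Axl- cells. For BMP4 the difference in SNU449 cells was not called (0.75, limma, adjusted p = 0.11). The interaction was called for 5.87% of all genes.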

How the results depend on the processing

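Of the members called, counts for Rego resistance in SNU449 cells were 9 to 12 under all alternatives against 11. Without the replicate block, 10 instead of 6 members were called for the interaction, with INHBA, ID2, TGFB1 and LTBP2 added. Over all genes, calls without the block were 2175 instead of 1219 and 1552 instead of 678 for Rego in SNU449 and SNU449-Axl- cells, 2182 instead of 1163 and 1503 instead of 682 for loss of Axl in control and resistant cells and 1826 instead of 916 for the interaction, and all 6 members of the interaction were among those called without it. In the tables of the pairs, 603 genes were called for Rego in SNU449 cells, 603 for loss of Axl in control cells and 1160 for that in resistant cells, and with spike-in centring 2326 for the latter. Loss of Axl in control cells gave 5 instead of 8 members in the table of this pair of groups. Leaving out single libraries gave 9 to 12 members for Rego in SNU449 cells, 3 to 7 for Rego in SNU449-Axl- cells, 5 to 10 for loss of Axl in control cells, 1 to 7 for loss of Axl in resistant cells and 5 to 8 for the interaction. The count of 3 for Rego in SNU449-Axl- cells came without SNU449-Axl- control replicate 2 or resistant replicate 1 or 2, the count of 5 for control cells without SNU449-Axl- control replicate 2, and counts of 1 to 3 for loss of Axl in resistant cells without any single library of the resistant groups. Whether these changes came from the smaller number of libraries or from the library left out was not tested.

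Centring on the spike-in RNAs moved the median of all genes by 0.13 for Rego in SNU449-Axl- cells, 0.13 and 0.32 for loss of Axl in control and resistant cells and -0.19 for the interaction, and changed the sign of no called member. Signs turned only for differences that were not called. The INHBB interaction of 0.00 was -0.18 with spike-in centring, -0.0117 with upper-quartile scaling and -0.395 to 0.34 without single libraries. The Rego difference of GDF15 in SNU449-Axl- cells was -0.69 to 0.27 and that of PMEPA1 in SNU449 cells -0.40 to 0.96 without single libraries, the latter negative only without SNU449 control replicate 3. Depth per library is unknown, and members near the lower end of the scale (TGFB3, BMP2, BMPR1B and NOG) cannot show a difference.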
